A study of Mus musculus with 9 samples.

Results

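The genes described here are 40 genes of glycolysis and of the transcriptional response to low oxygen, followed in mouse embryonic stem cells labelled as Hbxip knockout (KO). They were chosen by name: 25 are glucose and lactate transporters, glycolytic enzymes and kinases that set the flux through glycolysis, 12 are other known targets of the hypoxia-inducible factors (HIF), and 3 are the HIF subunit genes Hif1a and Epas1 and the gene Vhl. All 40 were found in the deposited tables and all 40 had a mean of at least 0.5 FPKM over the 9 libraries, a limit that 13990 genes passed and that defined the genes tested. FPKM is a fragment count scaled by gene length and library size. RNA-seq was carried out on E14 cells, an embryonic stem cell line of mouse strain 129. The KO cells are labelled Hbxip-/- and the WT cells are wild type. Hbxip is now named Lamtor5, and its protein is a subunit of Ragulator, the lysosomal scaffold through which amino acids activate the growth kinase complex mTORC1. Both genotypes were sampled in pluripotent culture, on day 4 of a 96 h withdrawal of LIF (leukaemia inhibitory factor, which keeps them from differentiating) and as embryoid bodies, the cell clusters in which differentiation starts. Each of these 3 cultures had 2 KO libraries and 1 WT library. Whether the KO libraries are separate clones, or separate dishes, is not stated in the labels. The p-values therefore reflect only how far these libraries lay apart, and the tests assume that each lone WT library varies as much as a KO pair does.

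Glycolysis splits glucose into pyruvate in the cytosol and yields ATP without oxygen, and pluripotent stem cells are known to run it at a high rate and to release much of the pyruvate as lactate. When oxygen is low, the HIF alpha subunits escape the prolyl hydroxylases that mark them for the VHL ubiquitin ligase, pair with their partner ARNT and bind sites with the core ACGTG or GCGTG beside glucose transporter, glycolysis and vascular genes. Activity of mTORC1 is known to raise HIF1A synthesis and glycolytic gene expression, and the HIF target Ddit4 in turn restrains mTORC1.

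Sequences upstream of the 4 members that hold a HIF core motif and differed most between KO and WT in pluripotent culture are printed because all 4 genes were lower in KO there. They are the 250 bases before the annotated transcription start in the RefSeq promoter table of build GRCm38.p6, 5′ to 3′ on the gene's strand, in lower case, with ACGTG and GCGTG on either strand in capitals (CACGT and CACGC when read on the opposite strand). Ddit4, which encodes an inhibitor of mTORC1, lies on the minus strand at chr10:59951771-59952020 and holds 2 matches. Adm, which encodes the vasodilator peptide adrenomedullin, lies on the plus strand at chr7:110627407-110627656 with 2 matches. Bnip3, which encodes a mitochondrial receptor for mitophagy, lies on the minus strand at chr7:138909507-138909756 with 5 matches, some of them inside CACGTG, which is the same on both strands and is also the motif of MYC and related factors. Egln3, which encodes a HIF prolyl hydroxylase, lies on the minus strand at chr12:54203875-54204124 with 1 match.
Ddit4: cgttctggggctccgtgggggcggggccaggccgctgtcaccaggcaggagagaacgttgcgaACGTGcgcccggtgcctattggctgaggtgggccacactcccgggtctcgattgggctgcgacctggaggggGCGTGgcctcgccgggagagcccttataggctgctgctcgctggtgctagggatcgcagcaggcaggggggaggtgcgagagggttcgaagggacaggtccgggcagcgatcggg
Adm: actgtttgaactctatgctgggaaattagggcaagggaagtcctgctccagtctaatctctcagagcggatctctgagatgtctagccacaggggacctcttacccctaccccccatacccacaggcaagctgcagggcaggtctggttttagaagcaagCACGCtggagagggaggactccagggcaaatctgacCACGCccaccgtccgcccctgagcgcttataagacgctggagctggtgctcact
Bnip3: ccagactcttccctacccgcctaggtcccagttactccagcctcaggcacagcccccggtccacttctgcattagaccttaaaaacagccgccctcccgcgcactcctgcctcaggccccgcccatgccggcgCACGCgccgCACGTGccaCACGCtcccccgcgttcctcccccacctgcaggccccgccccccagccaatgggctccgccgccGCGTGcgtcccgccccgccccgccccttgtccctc
Egln3: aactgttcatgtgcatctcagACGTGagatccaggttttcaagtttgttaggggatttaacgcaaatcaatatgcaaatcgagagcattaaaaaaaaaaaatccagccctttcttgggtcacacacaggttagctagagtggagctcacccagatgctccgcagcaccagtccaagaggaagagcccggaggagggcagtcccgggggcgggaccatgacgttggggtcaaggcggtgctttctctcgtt
The promoter table, which runs from 250 bases before to 50 after each start, had entries for 37 of the 40 members; Slc2a3, Ndrg1 and Epas1 had none. In this window ACGTG or GCGTG stood in 33 of the 37 (89.2%), in 21 of 24 glycolytic enzymes and transporters (87.5%) and in 11 of 11 other HIF targets, against 66.7% of the 10928 tested genes with an entry. The G and C content of the windows differed as well, with a median of 62.7% in the members, 69% in the HIF targets and 60.7% in the tested genes, and its part in these shares was not tested. CACGTG stood in 6 of the 37 members (16.2%) and in 11.8% of the tested genes. A match is a description of the letters and not a bound site.

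Depth was even: the library totals of rounded counts ranged between 10147301 and 10863866, a ratio of 1.07, and 3 counts were worth 0.276 to 0.296 CPM (counts scaled to library size). Hbxip was at 31.0 and 29.1 FPKM in KO against 40.7 FPKM in WT in pluripotent culture, at 16.2 and 15.5 against 38.5 FPKM after LIF withdrawal, and at 23.0 and 18.3 against 41.8 FPKM in embryoid bodies, so reads of the targeted gene remained in KO. Its difference did not pass the test in pluripotent culture (-0.32 ± 0.15, adjusted p = 0.0971) and was lower in KO after LIF withdrawal (-1.22 ± 0.16, adjusted p = 7.55e-05) and in embryoid bodies (-1.02 ± 0.15, adjusted p = 0.000254), in edgeR's quasi-likelihood test. The part of the gene that was deleted is not stated in the labels, from which the genotype is taken. Along the first principal component (50.9% of the variance) the KO pluripotent libraries lay at 91.3 and 78.0 and the other 7 libraries between -67.7 and 12.2. Embryonic stem cell markers summed over 8 genes were high in every library, at 3653 to 4806 FPKM in KO and 3717 to 4940 FPKM in WT. Single markers were not level. In WT Klf4 was at 155 FPKM in pluripotent culture, 21.1 FPKM after LIF withdrawal and 17.3 FPKM in embryoid bodies. In KO it was at 85.6 and 90.5, 60.3 and 58.0, and 51.7 and 41.6 FPKM in these cultures. At an adjusted p below 0.05 in edgeR's test, 1 of the 8 was higher and 5 lower in KO pluripotent culture. The counts were 4 higher and 1 lower after LIF withdrawal, and 5 higher and 1 lower in embryoid bodies. Among all tested genes 51.8%, 35.8% and 37.2% passed in these 3 cultures. The sum of 12 extraembryonic endoderm markers was 355 to 1282 FPKM in KO against 120.1 to 318.4 FPKM in WT and was mostly Apoe, while Afp and Ttr stayed below 0.1 FPKM. Of the 9 tested, 5 were higher and 2 lower in KO pluripotent culture at the same threshold, which 51.8% of all tested genes passed. Amn was at 22.3 and 17.5 FPKM in KO against 1.78 FPKM in WT there. Col4a1 was at 48.1 and 43.1 FPKM in KO against 12.6 FPKM in WT. The 2 lower markers were Sox7 and Dab2, with log2 fold changes of -1.84 ± 0.34 and -1.16 ± 0.22 in pluripotent culture. Sox7 was at 0.53 and 0.44 FPKM in KO against 1.92 FPKM in WT. The remaining marker sums were lower than the stem cell sums. Primitive streak markers summed to 13.2 to 17.6 FPKM in KO and 7.58 to 69.6 FPKM in WT, and neuroectoderm markers to 3.99 to 15.1 and 11.6 to 31.0 FPKM. Trophoblast markers summed to 13.7 to 44.0 and 32.7 to 63.9 FPKM, and fibroblast markers to 6.06 to 21.6 and 15.3 to 36.3 FPKM. Blood markers summed to 0.58 to 1.56 and 2.48 to 3.40 FPKM, with Hbb-bt and Hbb-bh1 at 0 throughout. In WT the primitive streak sum was 7.58 FPKM in pluripotent culture, 46.7 FPKM after LIF withdrawal and 69.6 FPKM in embryoid bodies. Of its 6 tested markers, 2 were higher and 1 lower in KO pluripotent culture. After LIF withdrawal 1 was higher and 5 lower, and in embryoid bodies 1 higher and 4 lower. The part of all these markers in the results below was not tested, and in these bulk libraries fewer cells of a type and less RNA per cell cannot be told apart.

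The members spanned a wide range of levels. Gapdh, the glyceraldehyde phosphate dehydrogenase, had the highest mean over the 9 libraries, 6170 FPKM, followed by the pyruvate kinase Pkm (1823 FPKM), the aldolase Aldoa (1754 FPKM), the enolase Eno1 (1540 FPKM) and the lactate dehydrogenase Ldha (1167 FPKM). Among the other HIF targets Bnip3 led with 106 FPKM, ahead of the histone demethylase Kdm3a (53.3 FPKM) and Ddit4 (45.7 FPKM). The lowest means were those of Adm (1.84 FPKM), Pfkfb4 (1.004 FPKM) and the cell-surface carbonic anhydrase Car9 (0.672 FPKM). Together the 25 enzymes and transporters took 2.20% and 2.57% of all counts in the KO pluripotent libraries against 3.38% in WT. After LIF withdrawal the shares were 2.88% and 3.09% in KO against 3.45% in WT, and in embryoid bodies they were 2.995% and 3.08% in KO against 2.91% in WT. The 12 HIF targets took 0.0366% and 0.0562% of counts in KO against 0.107% in WT in pluripotent culture, 0.0766% and 0.102% against 0.110% after LIF withdrawal, and 0.0748% and 0.0856% against 0.0622% in embryoid bodies. Exact 95% binomial intervals, which cover counting error only, reached at most 0.011 percentage points to either side. Both shares were thus lower in each KO library than in WT in the first 2 cultures and higher in embryoid bodies.

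**Figure D1:**
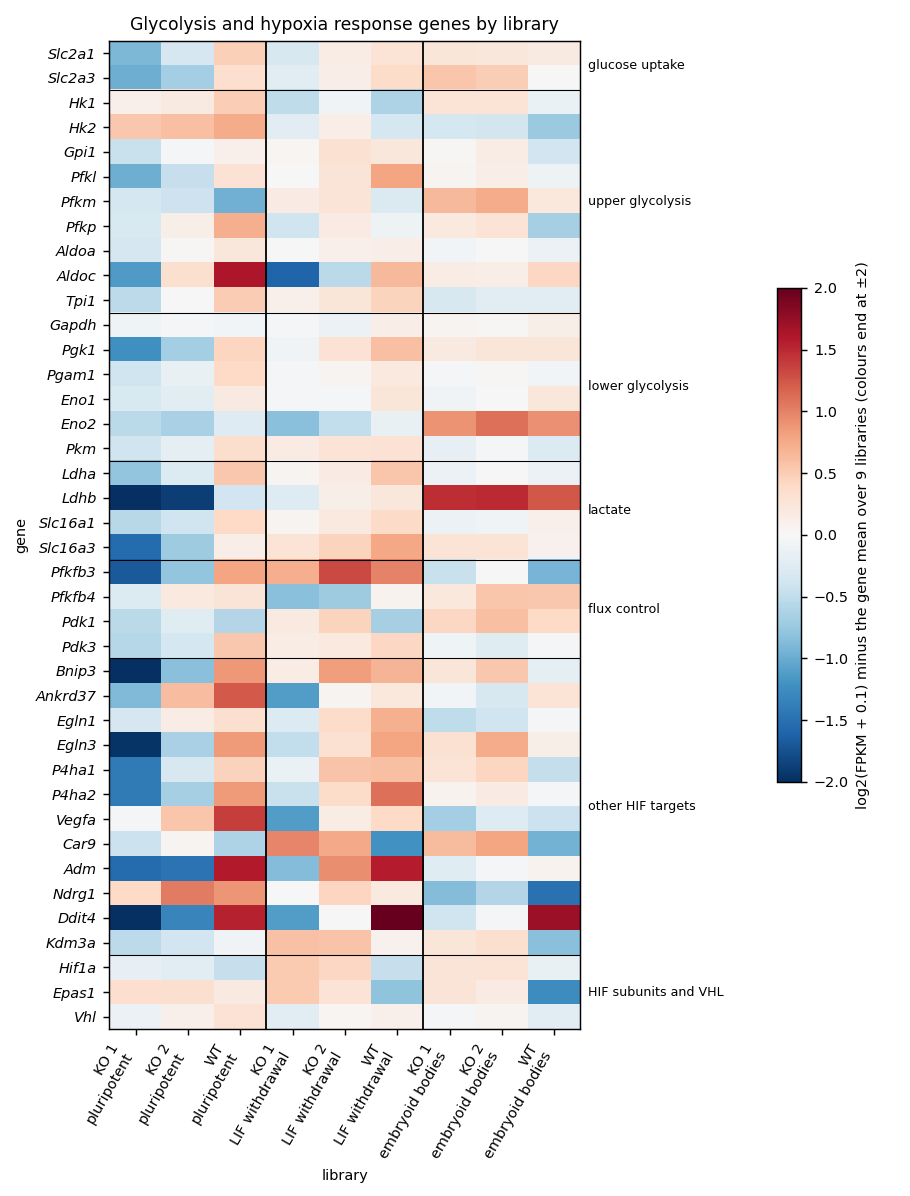
Levels of the 40 members (rows, grouped by role) in the 9 libraries (columns, KO left of WT in each culture), as log2(FPKM + 0.1) minus the gene's mean, with colours ending at ±2. The KO pluripotent columns are blue for most members, replicate 1 more deeply than replicate 2, while the WT pluripotent column is red for most.

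KO versus WT in pluripotent culture asked how these genes stood before differentiation. Glycolysis and HIF target genes were mostly lower in KO: 24 of the 40 members fell and 2 rose, where 51.8% of all tested genes were called (26.3% lower and 25.5% higher). A gene was called at an adjusted p below 0.05 in edgeR's quasi-likelihood test, adjusted by Benjamini-Hochberg over all tested genes. Fold changes are log2 of KO over WT, and ± marks a standard error obtained from the test statistic. The median over the members was -0.66, beside -0.01 over all tested genes. With library totals as the only scaling, which moves the median of all tested genes to -0.13 and their calls to 2830 higher and 4515 lower, 28 members were called, including each of these 26.

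At the entry of the pathway both glucose transporter genes fell in KO pluripotent cells, Slc2a1 with -0.95 ± 0.18 (adjusted p = 0.000837) and Slc2a3 with -1.04 ± 0.12 (adjusted p = 2.74e-05). Of the 9 genes from hexokinase to triosephosphate isomerase, 4 fell and 1 rose. Aldoc, the brain-type aldolase, was at 2.21 and 6.24 FPKM in KO against 15.5 FPKM in WT and had -1.76 ± 0.37 (adjusted p = 0.00171). Both KO libraries lay below WT, replicate 1 further, and the value was -1.20 without KO pluripotent replicate 1 and -2.65 without replicate 2. The liver-type and platelet-type phosphofructokinase genes Pfkl and Pfkp fell by 0.87 ± 0.15 and 0.68 ± 0.17, and the triosephosphate isomerase gene Tpi1 by 0.64 ± 0.14. In contrast, the muscle-type gene Pfkm rose, with 15.8 and 15.0 FPKM in KO against 10.3 FPKM in WT and a log2 fold change of 0.70 ± 0.11 (adjusted p = 0.000275). The hexokinase genes Hk1 (-0.24 ± 0.13) and Hk2 (-0.05 ± 0.11), the isomerase Gpi1 (-0.20 ± 0.13) and Aldoa (-0.24 ± 0.11) did not pass the threshold.

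In the later steps of glycolysis 4 of 6 genes fell. Pgk1, which makes the first ATP of the pathway, was at 269 and 390 FPKM in KO against 840.3 FPKM in WT, a log2 fold change of -1.23 ± 0.16 (adjusted p = 4.82e-05) with both KO libraries below WT. Pgam1 (-0.54 ± 0.09), Pkm (-0.52 ± 0.09) and Eno1 (-0.31 ± 0.08) fell less. Eno1 shares reads with its near-identical copy Eno1b, so its value is uncertain; the sum of both was 2112 and 2397 FPKM in KO against 2945 FPKM in WT. Gapdh was nearly level, at 5787 and 6042 FPKM in KO against 5926 FPKM in WT (0.09 ± 0.08, adjusted p = 0.395), and Eno2 had -0.30 ± 0.21.

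All 4 lactate genes fell in KO pluripotent cells. Ldhb, the lactate dehydrogenase subunit that favours pyruvate formation, was at 36.0 and 40.1 FPKM in KO against 113.9 FPKM in WT, a close KO pair well below WT (-1.46 ± 0.12, adjusted p = 1.9e-06). Slc16a3, a lactate exporter known as a HIF target, was at 37.3 and 66.3 FPKM in KO against 119.0 FPKM in WT (-1.09 ± 0.20, adjusted p = 0.00072). Ldha, whose subunit favours lactate formation, had -0.93 ± 0.14, and the lactate transporter gene Slc16a1 had -0.76 ± 0.09. Of the flux-controlling kinases, Pfkfb3, which makes the allosteric activator of phosphofructokinase, was at 1.84 and 3.50 FPKM in KO against 10.6 FPKM in WT, with both KO libraries at or below 3.50 FPKM (-1.91 ± 0.28, adjusted p = 0.000139). Pdk3, which inhibits pyruvate dehydrogenase, fell by 0.87 ± 0.12, while its relative Pdk1 had 0.32 ± 0.13 (adjusted p = 0.0511) and Pfkfb4 -0.20 ± 0.34.

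Of the 12 other HIF targets 8 fell and 0 rose in pluripotent culture. Ddit4 was at 4.71 and 11.3 FPKM in KO against 82.8 FPKM in WT, which gave the largest size of change among the members in this culture (-3.26 ± 0.35, adjusted p = 1.15e-05). Adm rested on few reads, 6 and 6 counts in KO against 62 in WT, and its log2 fold change was -3.18 ± 0.61 (adjusted p = 0.000886). Its count ratio was 0.109, with a 95% exact interval of 0.0534 to 0.204 for counting error. For these 2 genes both KO libraries lay below the 1 WT library.

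Bnip3 was at 18.1 and 50.6 FPKM in KO against 164 FPKM in WT (-2.14 ± 0.36, adjusted p = 0.000341). Egln3 was at 3.03 and 7.67 FPKM in KO against 21.8 FPKM in WT (-1.91 ± 0.35, adjusted p = 0.000651). P4ha2, a catalytic subunit of collagen prolyl hydroxylase, was at 3.68 and 6.20 FPKM in KO against 18.02 FPKM in WT (-1.75 ± 0.28, adjusted p = 0.000223). In each of these the KO libraries lay below WT and replicate 1 was the lower of the pair. P4ha1, the related hydroxylase subunit, was at 7.49 and 16.0 FPKM in KO against 27.8 FPKM in WT (-1.13 ± 0.30, adjusted p = 0.00759). The angiogenic growth factor gene Vegfa (-1.01 ± 0.31) and Kdm3a (-0.26 ± 0.09) also fell, but neither call held without KO pluripotent replicate 1 (-0.79 and -0.20). Car9, the stress-responsive gene Ndrg1, Egln1 and Ankrd37, which encodes an ankyrin-repeat protein, did not pass the threshold.

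Set side by side in pluripotent culture, the enzymes and transporters had 16 lower and 1 higher of 25, with a median of -0.64, and the other HIF targets 8 lower and 0 higher of 12, with a median of -1.10. The enzymes ranged from -1.91 to 0.70 and the HIF targets from -3.26 to 0.67. The medians depended on the KO library, at -0.44 for enzymes and -0.74 for HIF targets without KO pluripotent replicate 1, and at -0.82 and -1.87 without replicate 2. Fitted on the 3 pluripotent libraries alone, with 1 residual degree of freedom, 11 of the 26 members were called, 1 higher and 10 lower, and Bnip3, Egln3, P4ha1, Aldoc and Slc16a3 were among those not called. DESeq2 did not call Aldoc, Kdm3a, P4ha1, Pfkp or Vegfa. Several values moved by more than 1.5-fold without replicate 2, to -3.99 for Ddit4, -3.03 for Bnip3, -2.70 for Egln3 and -1.75 for P4ha1, and these 4 calls were made without either replicate in the fit on all cultures.

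After 96 h without LIF, members lay on both sides of WT. In KO 8 of 40 rose and 6 fell, where 35.8% of all tested genes were called (18.4% higher and 17.4% lower), and the median was -0.21, beside 0.00 over all tested genes. The balance of calls depended on the fit: the 3 LIF withdrawal libraries fitted alone gave 8 higher and 12 lower, adding Adm, Egln3, Pgk1, Slc16a3, Slc2a3 and Vegfa, all lower in KO. The following enzymes, called lower in KO pluripotent cells, did not pass here in the fit on all cultures. Pgk1 was at 600 and 765 FPKM in KO against 952 FPKM in WT (-0.42 ± 0.16, adjusted p = 0.0584). Ldhb was at 124 and 162 FPKM in KO against 174 FPKM in WT (-0.23 ± 0.12, adjusted p = 0.152). Pfkfb3 was at 10.2 and 15.4 FPKM in KO against 12.3 FPKM in WT, so that the KO libraries lay on either side of WT (0.11 ± 0.25, adjusted p = 0.777). Slc16a3 was at 132 and 148 FPKM in KO against 187 FPKM in WT (-0.35 ± 0.20, adjusted p = 0.189), with both KO libraries below WT. Pgk1 and Slc16a3 were called lower by the fit on the LIF withdrawal libraries alone and by the fit on all cultures when KO pluripotent replicate 1 or 2 was left out.

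Enzyme genes that fell after LIF withdrawal were Aldoc, Pfkl and Ldha. Aldoc was at 1.58 and 3.41 FPKM in KO against 7.87 FPKM in WT (-1.59 ± 0.42, adjusted p = 0.0107), a call lost without KO LIF withdrawal replicate 1 (-1.16). Pfkl fell by 0.60 ± 0.15 and Ldha by 0.40 ± 0.14, the Ldha call being lost without either KO replicate (-0.36 without replicate 1 and -0.43 without replicate 2) and without either KO embryoid body replicate. Pdk1 rose by 1.05 ± 0.13 (adjusted p = 5.39e-05) and Pfkm by 0.56 ± 0.10. Hk1 (0.41 ± 0.14) and Hk2 (0.39 ± 0.12) rose too, and both calls were lost without replicate 2 (0.19 and 0.22), that of Hk1 also without either KO embryoid body replicate. DESeq2 did not call Aldoc, Pfkl, Ldha or Hk1, and neither limma fit called Aldoc, Ldha, Hk1 or Hk2.

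Among the other HIF targets after LIF withdrawal 2 rose and 3 fell. Ddit4 was at 13.0 and 28.2 FPKM in KO against 129 FPKM in WT, again low in both KO libraries (-2.59 ± 0.31, adjusted p = 4.09e-05; -3.23 without replicate 2). P4ha2 was at 7.24 and 12.9 FPKM in KO against 21.5 FPKM in WT (-1.04 ± 0.25, adjusted p = 0.00685), a call not made by DESeq2 or by either limma fit. Egln1, the main HIF prolyl hydroxylase, had -0.58 ± 0.21, a call lost without KO replicate 1 (-0.30), without either KO embryoid body replicate, and in DESeq2 and both limma fits. These 3 made up the falls. Car9 was higher in KO from few reads, 26 and 22 counts against 4 in WT (2.58 ± 0.61, adjusted p = 0.00587), a count ratio of 6.16 with an exact interval of 2.26 to 23.5, though DESeq2 did not make the call. Kdm3a was at 76.1 and 75.4 FPKM in KO against 53.8 FPKM in WT (0.55 ± 0.09, adjusted p = 0.000342). Bnip3 was at 99.9 and 160.7 FPKM in KO against 144 FPKM in WT, and Egln3 at 8.52 and 14.8 FPKM in KO against 20.9 FPKM in WT. P4ha1 (18.2 and 30.0 FPKM in KO, 30.4 FPKM in WT) and Adm (10 and 40 counts in KO, 61 in WT) had wide KO pairs as well, and none of these 4 genes passed the threshold. The medians were -0.20 for the enzymes, with 4 higher and 3 lower of 25, and -0.57 for the 12 HIF targets, the second of which was -0.15 without KO replicate 1 and -1.07 without replicate 2.

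**Figure D2:**
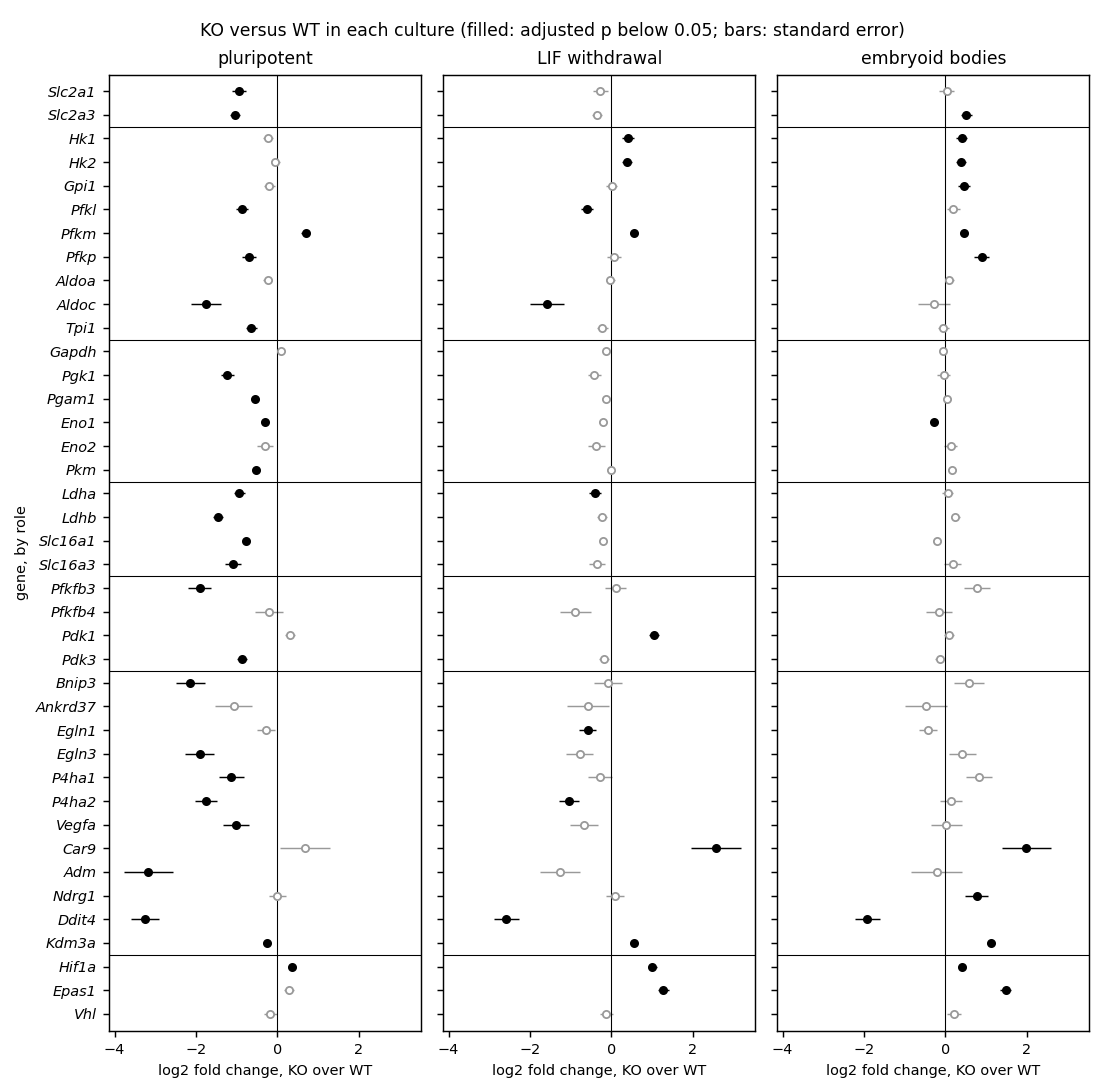
Log2 fold change of KO over WT for each member (rows, by role) in the 3 cultures (panels), with standard errors as bars and filled points for an adjusted p below 0.05. Filled points lie mostly left of 0 in pluripotent culture (24 of 26) and mostly right of 0 in embryoid bodies (11 of 13), with Ddit4 to the left in each panel.

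In embryoid bodies more members were higher than lower in KO: 11 of 40 rose and 2 fell, where 37.2% of all tested genes were called (19.4% higher and 17.7% lower). The median was 0.16, beside 0.00 over all tested genes. Genes of early glycolysis made up 5 of the rises, which were Pfkp (0.90 ± 0.18, adjusted p = 0.00242), Pfkm (0.47 ± 0.10), Gpi1 (0.46 ± 0.14), Hk1 (0.41 ± 0.13) and Hk2 (0.38 ± 0.12). The glucose transporter gene Slc2a3 rose by 0.52 ± 0.13 (adjusted p = 0.00811), while Slc2a1 had 0.04 ± 0.18. Pgk1 was at 708 and 738 FPKM in KO against 742 FPKM in WT, and Ldhb at 414 and 419 FPKM in KO against 350.0 FPKM in WT (0.25 ± 0.11, adjusted p = 0.111). Slc16a3 was at 131 and 132 FPKM in KO against 116 FPKM in WT, Aldoc at 5.56 and 5.46 FPKM in KO against 6.64 FPKM in WT, and Pfkfb3 at 4.48 and 6.18 FPKM in KO against 3.17 FPKM in WT (0.78 ± 0.32, adjusted p = 0.075). None of these 5 passed the threshold. Eno1 fell slightly (-0.27 ± 0.08), with the sum of Eno1 and Eno1b at 2594 and 2761 FPKM in KO against 3168 FPKM in WT.

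Of the 12 other HIF targets 3 rose and 1 fell in embryoid bodies. Ddit4 was at 21.6 and 28.0 FPKM in KO against 93.2 FPKM in WT (-1.91 ± 0.31, adjusted p = 0.000457), with both KO libraries below WT, though DESeq2 did not make this call. Kdm3a was at 60.1 and 63.6 FPKM in KO against 28.4 FPKM in WT (1.12 ± 0.09, adjusted p = 2.38e-06), a close pair above WT. Car9 had 19 and 22 counts in KO against 5 in WT (1.99 ± 0.60, adjusted p = 0.0206), and its count ratio was 4.05 with an exact interval of 1.60 to 13.1. Ndrg1 rose by 0.78 ± 0.28. None of the remaining targets passed. Bnip3 was at 107 and 131 FPKM in KO against 79.1 FPKM in WT, and P4ha1 at 24.2 and 27.1 FPKM in KO against 14.5 FPKM in WT (0.83 ± 0.32, adjusted p = 0.059). Egln1 lay below WT, at 6.52 and 7.06 FPKM in KO against 9.11 FPKM in WT (-0.43). So did Ankrd37, at 4.43 and 3.66 FPKM in KO against 5.58 FPKM in WT (-0.47). Egln3 was at 14.9 and 20.1 FPKM in KO against 13.0 FPKM in WT, P4ha2 at 10.4 and 11.1 against 9.72 FPKM, and Adm had 16 and 19 counts in KO against 20 in WT.

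In embryoid bodies the medians of the lists were 0.10 for the enzymes (6 higher and 1 lower of 25) and 0.28 for the HIF targets (3 higher and 1 lower of 12). The 13 calls became 8 without KO embryoid body replicate 2 and 9 without replicate 1, and 21 when the 3 embryoid body libraries were fitted alone. Car9 and Gpi1 were not called without replicate 2 (1.90 and 0.40), Eno1 not without replicate 1 (-0.23), and Hk1, Hk2 and Ndrg1 not without either. DESeq2 did not call Car9, Ddit4, Gpi1 or Hk1, and limma on log2(FPKM + 1) did not call Eno1, Gpi1, Hk1, Hk2, Ndrg1 or Slc2a3.

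Of the genes for the HIF machinery itself, Hif1a rose in KO in each culture and Epas1 in both differentiating ones. Hif1a was at 27.4 and 26.1 FPKM in KO against 22.1 FPKM in WT in pluripotent culture, at 44.2 and 40.7 against 22.1 FPKM after LIF withdrawal, and at 36.6 and 37.0 against 27.7 FPKM in embryoid bodies. Its KO libraries lay above WT in each culture, and the rises were 0.37 ± 0.10 (adjusted p = 0.00905), 1.01 ± 0.10 (adjusted p = 1.16e-05) and 0.41 ± 0.10 (adjusted p = 0.00617). The fit on the pluripotent libraries alone did not call the first of these. Epas1, which encodes the second HIF alpha subunit, was at 14.2 and 14.1 FPKM in KO against 12.7 FPKM in WT in pluripotent culture, at 16.1 and 13.5 against 6.39 FPKM after LIF withdrawal, and at 13.5 and 12.5 against 4.62 FPKM in embryoid bodies. It rose after LIF withdrawal (1.28 ± 0.13, adjusted p = 1.36e-05) and in embryoid bodies (1.48 ± 0.14, adjusted p = 7.19e-06), and had 0.28 ± 0.12 in pluripotent culture (adjusted p = 0.0703). Vhl stayed between 6.23 and 7.78 FPKM in KO and between 6.27 and 8.87 FPKM in WT and passed in no culture. HIF subunits are known to be controlled largely through protein stability, which these RNA values do not measure.

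**Figure D3:**
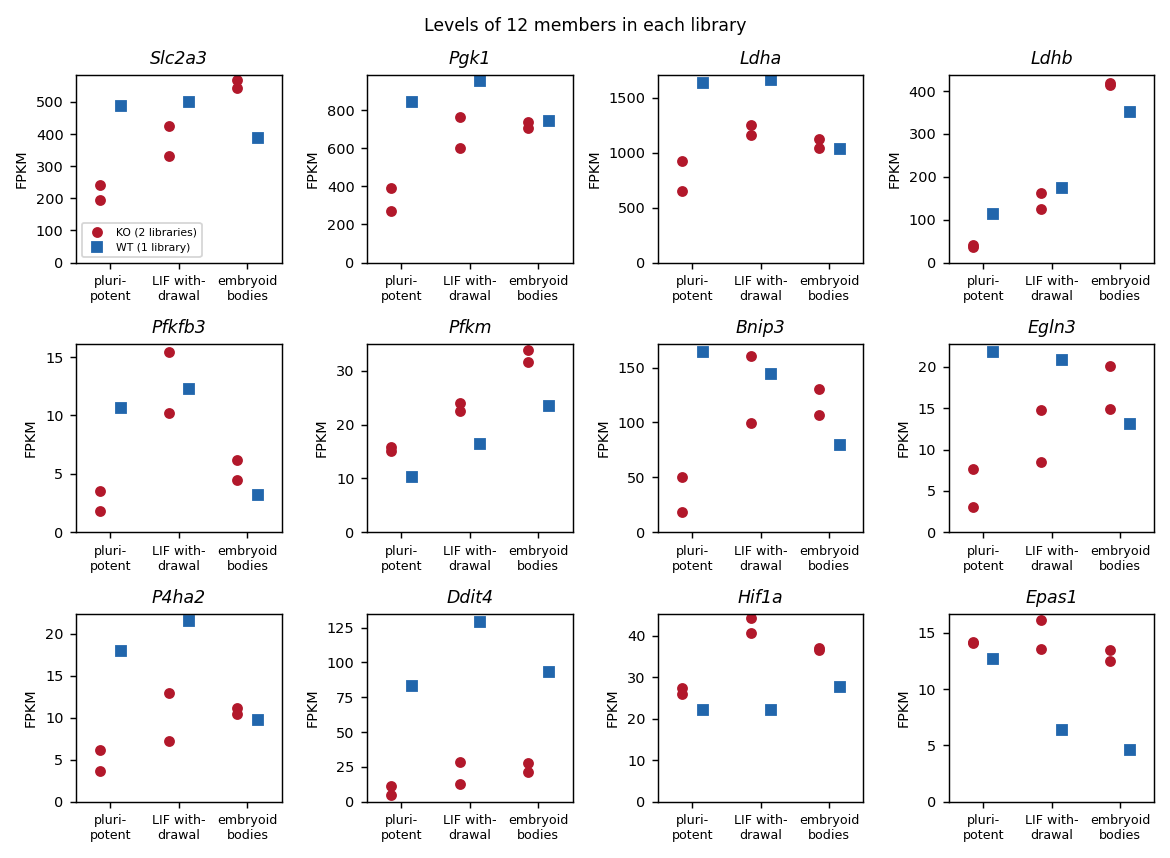
FPKM of 12 members in each library, with the 2 KO libraries as circles left of the single WT library (square) in each culture, on axes that start at 0. Slc2a3, Pgk1, Ldha, Ldhb, Pfkfb3, Bnip3, Egln3 and P4ha2 lie below WT in KO pluripotent culture and near or above WT in embryoid bodies, Ddit4 is below WT in all 3 cultures, and Pfkm and Hif1a are above.

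Over the 3 cultures together, an additive fit of culture and genotype called 8 members, 4 higher and 4 lower, where 27.1% of all tested genes were called (13.3% higher and 13.8% lower), and the median was -0.32. Pfkm (0.57 ± 0.08), Hif1a (0.59 ± 0.13), Epas1 (0.98 ± 0.21) and Car9 (1.73 ± 0.40) rose, while Ddit4 (-2.60 ± 0.32, adjusted p = 0.000755), Aldoc (-1.25 ± 0.37), Slc16a1 (-0.39 ± 0.11) and Eno1 (-0.26 ± 0.08) fell. Counted culture by culture, Ddit4 fell in all 3, Pfkm and Hif1a rose in all 3, and Slc2a3, Pfkp and Kdm3a were called lower in pluripotent culture and higher in embryoid bodies. The members called in no culture were Aldoa, Gapdh, Eno2, Pfkfb4, Ankrd37 and Vhl. The 8 calls of the additive fit became 4 without the WT LIF withdrawal library, where Aldoc, Car9, Eno1 and Epas1 were not called, 5 without KO LIF withdrawal replicate 1 or either KO embryoid body replicate, and 18 without the WT embryoid body library. They were 27 for the mean of the 3 within-culture differences.

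The response to LIF withdrawal asked how each genotype moved from its own pluripotent culture. In KO 26 of 40 members rose and 4 fell, where 59.2% of all tested genes were called (30.2% higher and 29% lower), with a median of 0.53. In WT 3 rose and 4 fell, where 20.5% were called (11.6% higher and 8.9% lower), with a median of -0.01. KO compared 2 libraries with 2 and WT 1 with 1, so a change of a given size was easier to call in KO. DESeq2 called 19 members higher and 3 lower in KO. Fewer rises were called in KO without KO pluripotent replicate 1 or without KO LIF withdrawal replicate 2. The KO rises included Pfkfb3 (2.28 ± 0.24), Bnip3 (1.89 ± 0.32), Ldhb (1.87 ± 0.11), Slc16a3 (1.41 ± 0.17), Pgk1 (1.02 ± 0.14) and Kdm3a (1.0 ± 0.07). The corresponding WT values were 0.27 ± 0.29 for Pfkfb3, -0.16 ± 0.40 for Bnip3, 0.63 ± 0.14 for Ldhb, 0.68 ± 0.23 for Slc16a3, 0.21 ± 0.19 for Pgk1 and 0.18 ± 0.10 for Kdm3a, of which the Ldhb value passed, though in neither limma fit. Hk1 and Hk2 fell in both genotypes, by 0.45 ± 0.11 and 0.64 ± 0.09 in KO and by 1.09 ± 0.16 and 1.08 ± 0.13 in WT.

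Tested directly, the LIF withdrawal responses of KO and WT differed for 15 members, all upward (KO minus WT), where 32.3% of all tested genes were called (17.5% higher and 14.9% lower), and the median was 0.60. Bnip3 (2.06 ± 0.52, adjusted p = 0.00949), Pfkfb3 (2.01 ± 0.38, adjusted p = 0.0019) and Ldhb (1.23 ± 0.17, adjusted p = 0.000287) had the largest values among the 15. Enzymes made up 11 of the 15 calls of 25 listed, with a median of 0.51, and HIF targets 2 of 12, with a median of 0.76. Without KO pluripotent replicate 2 there were 23 calls, without KO LIF withdrawal replicate 1 there were 22, and DESeq2 and both limma fits called 9 each, without Bnip3, Hk1, Pfkp, Pgk1 or Slc2a3.

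Embryoid bodies were set against pluripotent culture in the same way, again with 2 KO libraries against 2 and 1 WT library against 1. In KO 19 of 40 rose and 4 fell, where 61% of all tested genes were called (31% higher and 30% lower), with a median of 0.35. In WT 5 rose and 17 fell, where 38.6% were called (19.7% higher and 18.9% lower), with a median of -0.47. Ldhb rose in both, by 3.35 ± 0.11 in KO and 1.64 ± 0.14 in WT, as did Eno2, the neuron-type enolase (1.55 ± 0.16 in KO and 1.12 ± 0.21 in WT), Pfkm (0.99 ± 0.08 in KO and 1.21 ± 0.12 in WT), Pdk1 (0.79 ± 0.10 in KO and 1.01 ± 0.14 in WT) and Hif1a (0.36 ± 0.08 in KO and 0.32 ± 0.12 in WT). Called higher in KO and lower in WT were 5 members, Ldha, Slc16a1, Pfkfb3, P4ha2 and Kdm3a. Pfkfb3 rose in KO (0.90 ± 0.26) and fell in WT (-1.79 ± 0.34), Kdm3a rose in KO (0.63 ± 0.07) and fell in WT (-0.75 ± 0.10), and P4ha2 rose in KO (1.02 ± 0.25) and fell in WT (-0.87 ± 0.31). The KO calls of Pfkfb3, Ldha and Slc16a1 were lost without KO pluripotent replicate 1 (0.50, 0.12 and 0.20) and without KO embryoid body replicate 2 (0.63, 0.30 and 0.25). The WT calls of P4ha2, Slc16a1 and Hif1a were lost without either KO embryoid body replicate, and DESeq2 made neither Ldha call, so that of the 5 only Kdm3a kept both opposite calls in every alternative run. Ndrg1, Hk2 and Vegfa fell in both genotypes. The KO Vegfa call (-0.85) was lost without KO pluripotent replicate 2 (-0.58), without KO embryoid body replicate 1 (-0.65), with library totals as the only scaling, and in DESeq2 and both limma fits, and DESeq2 did not make the WT call.

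The embryoid body responses differed between KO and WT for 26 members, again all upward (KO minus WT), where 41.8% of all tested genes were called (22.4% higher and 19.5% lower), and the median was 0.88. By role these were both glucose transporters, 7 of 9 upper and 3 of 6 lower glycolysis genes, all 4 lactate genes, 2 of 4 flux-controlling kinases, 7 of 12 other HIF targets and Epas1. The largest values among those called were Adm (2.97 ± 0.89), Bnip3 (2.73 ± 0.53), Pfkfb3 (2.69 ± 0.43) and Egln3 (2.33 ± 0.49), and the smallest adjusted p values were those of Kdm3a (1.38 ± 0.12, adjusted p = 9.55e-06), Ldhb (1.71 ± 0.17, adjusted p = 2e-05) and Slc2a3 (1.55 ± 0.18, adjusted p = 5.69e-05). The median was 0.66 for the enzymes, with 18 of 25 called, and 1.36 for the HIF targets. These differences use the same pluripotent libraries as KO versus WT in pluripotent culture, so a low KO value there enters both. The Adm call was lost without KO embryoid body replicate 2, and DESeq2 called 14 of the 26.

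**Figure D4:**
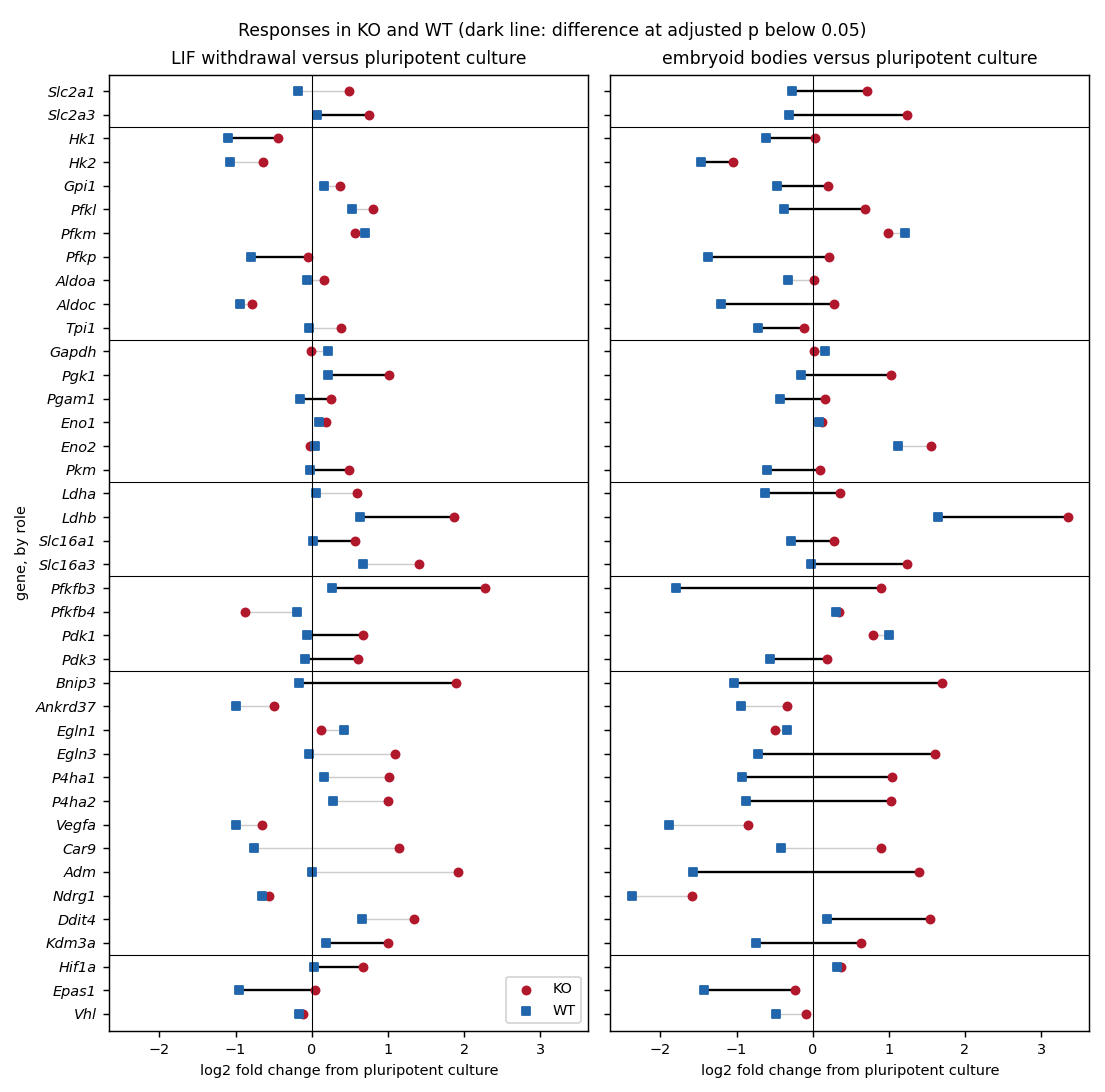
Log2 fold change from pluripotent culture to LIF withdrawal (left) and to embryoid bodies (right) for each member (rows, by role) in KO (circles) and WT (squares), joined by a dark line where the difference had an adjusted p below 0.05. The dark lines, 15 on the left and 26 on the right, all have the KO circle to the right of the WT square.

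Within the KO pairs, most members were lower in replicate 1 than in replicate 2 in each culture. In pluripotent culture, LIF withdrawal and embryoid bodies this held for 11, 10 and 11 of the 12 HIF targets. It held for 23, 23 and 19 of the 25 enzymes, and for 6464, 7009 and 7182 of the 13990 tested genes. Among the HIF targets, differences of at least 1.5-fold were found in 2 of the cultures. In pluripotent culture 7 of the 12 were lower by at least 1.5-fold, against 3 of the 25 enzymes and 6.08% of all tested genes. After LIF withdrawal the counts were 9 of 12 HIF targets and 1 of 25 enzymes, against 5.94% of all tested genes, and in embryoid bodies 0 of 12 and 0 of 25, against 2.91%. In pluripotent culture and after LIF withdrawal alike, 6 of the 12 HIF targets lay past this fold, against 1.79% of all tested genes. They had a median log2 ratio of replicate 1 over replicate 2 of -0.65 in pluripotent culture, -0.72 when LIF was withdrawn and -0.18 in embryoid bodies, where the enzymes had -0.25, -0.21 and -0.06. No member was higher in replicate 1 by this fold in any of the 3 cultures. These ratios have no replicate of their own and carry no test, and the labels do not say what sets the KO replicates apart.

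**Figure D5:**
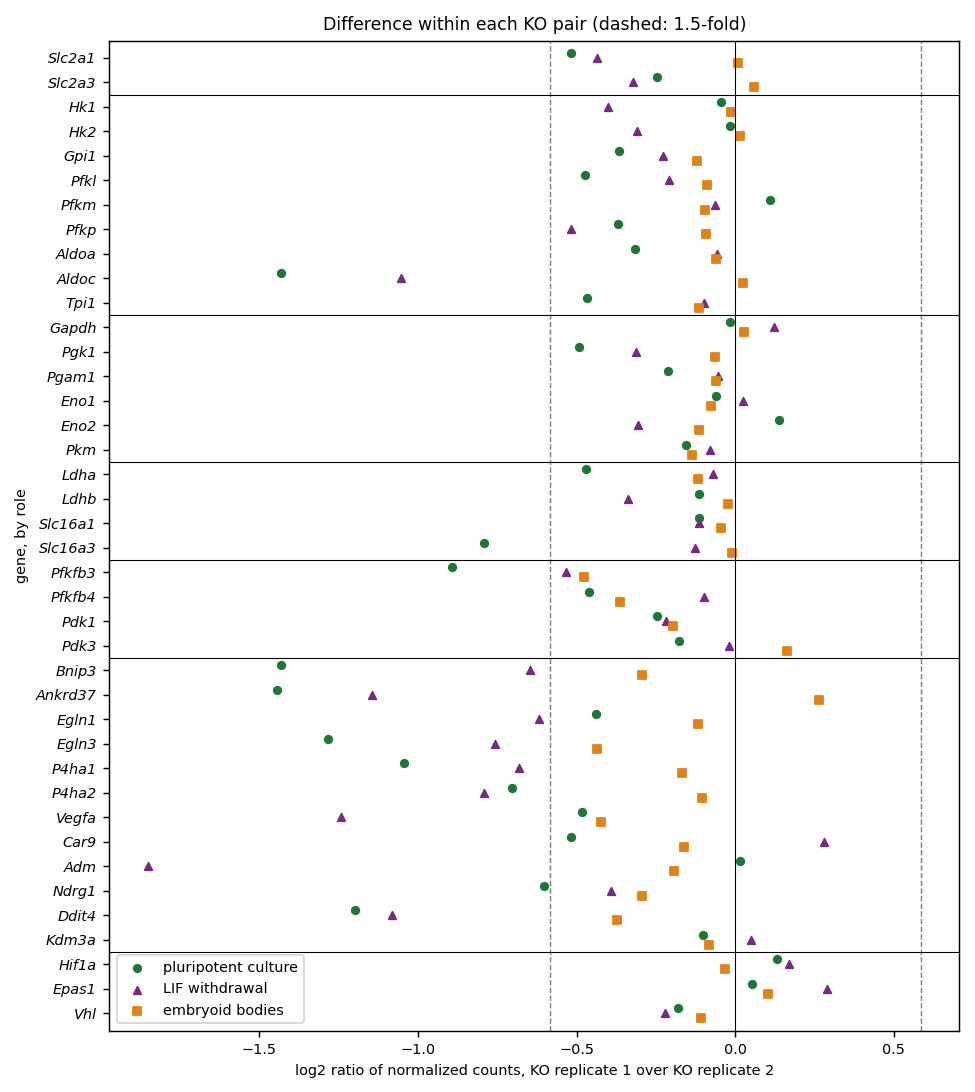
Log2 ratio of normalized counts in KO replicate 1 over KO replicate 2 for each member (rows, by role) in the 3 cultures, with dashed lines at 1.5-fold. Left of the left line lie 10 members in pluripotent culture and 10 after LIF withdrawal, most of them other HIF targets, and 0 in embryoid bodies.

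Further genes of the same pathways, taken from lists that do not overlap the members, were set beside them. Of 40 further hypoxia response genes 38 were tested, of which 5 rose and 20 fell in KO pluripotent culture (median -0.59), 7 rose and 8 fell after LIF withdrawal (median -0.08), and 14 rose and 3 fell in embryoid bodies (median 0.32). Among all tested genes 51.8%, 35.8% and 37.2% were called in these 3 cultures, beside 65.8%, 39.5% and 44.7% of the 38. Car12, another carbonic anhydrase, had 0 and 3 counts in KO against 158 in WT in pluripotent culture, a count ratio of 0.0107 with an exact interval of 0.00218 to 0.0318. Stc2, a secreted stanniocalcin, was at 1.29 and 1.98 FPKM in KO against 17.2 FPKM in WT there (-3.27 ± 0.32, adjusted p = 5.34e-06), and Plod2, a lysyl hydroxylase of collagen, at 11.4 and 19.8 FPKM in KO against 51.3 FPKM in WT (-1.60 ± 0.23). In embryoid bodies the transcriptional repressor Bhlhe40 was at 22.0 and 24.8 FPKM in KO against 8.66 FPKM in WT (1.43 ± 0.18), and the glycogen synthase Gys1 at 11.2 and 11.2 FPKM in KO against 4.16 FPKM in WT (1.42 ± 0.15). Igfbp3, which binds insulin-like growth factors, went the other way, with 9.54 and 10.1 FPKM in KO against 36.5 FPKM in WT after LIF withdrawal (-1.83 ± 0.11) and 13.2 and 11.3 FPKM in KO against 36.0 FPKM in WT in embryoid bodies (-1.56 ± 0.11).

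Of 35 further glycolysis genes 25 were tested, and their calls were 6 higher and 6 lower in KO pluripotent culture (median 0.01), 8 higher and 3 lower after LIF withdrawal (median 0.11), and 8 higher and 0 lower in embryoid bodies (median 0.24). These were 48%, 44% and 32% of the 25, beside 51.8%, 35.8% and 37.2% of all tested genes. The phosphoglucomutase gene Pgm1 was at 8.66 and 21.5 FPKM in KO against 74.2 FPKM in WT in pluripotent culture (-2.18 ± 0.30). Eno3, the muscle-type enolase, was at 37.9 and 33.2 FPKM in KO against 5.65 FPKM in WT after LIF withdrawal (2.66 ± 0.17), and the insulin-responsive glucose transporter gene Slc2a4 at 4.96 and 5.49 FPKM in KO against 1.56 FPKM in WT (1.80 ± 0.22). Fbp2, a fructose bisphosphatase, which runs against phosphofructokinase, was at 8.58 and 6.70 FPKM in KO against 1.43 FPKM in WT in embryoid bodies (2.40 ± 0.29). All 7 genes of the pentose phosphate pathway, a side branch that makes NADPH and ribose, were tested: 3 rose and 0 fell in pluripotent culture (median 0.29), 0 rose and 1 fell after LIF withdrawal (median 0.06), and 2 rose and 2 fell in embryoid bodies (median -0.20), against the same shares of all tested genes. In pluripotent culture Rpe rose by 0.71 ± 0.11, Pgls by 0.60 ± 0.10 and Pgd by 0.47 ± 0.10.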

How the data were processed

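RNA-seq tables of 9 libraries were used, 1 per library: 2 KO and 1 WT in each of 3 cultures, grouped by the labels. The RNA was isolated with an RNeasy kit and made into Illumina libraries, per the labels' protocols, and per the submitters' processing notes Bowtie2 and mouse build mm8 were used. Quantifier, strandedness and annotation are not given in the sources used here. Per the file headers the deposited values are expected counts (estimated counts, which need not be whole) and FPKM, which the authors scaled by gene length and library size. Between 78.03% and 78.43% of a library's deposited expected counts were whole to within 0.005. Reads that are shared between similar genes can make a count that is not whole, and among the members this bears most on Eno1 and its copy Eno1b.

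Expected counts were rounded, and unlisted genes were set to 0. Of 20287 gene IDs 20234 were matched by ID and 9 by accession to RefSeq names (GRCm38), and 44 kept their IDs. Promoter sequences came from the RefSeq table of GRCm38.p6, not from the files' build.

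The 13990 genes that averaged at least 0.5 FPKM were tested with edgeR 4.0.16 (quasi-likelihood, TMM factors 0.94 to 1.04, R 4.3.3), with Benjamini-Hochberg adjustment in each comparison. Of 10 comparisons 9 came from 1 fit with 6 group means, in which the KO pairs supply the 3 residual degrees of freedom (coefficient of biological variation 6.52%). KO versus WT over the cultures came from an additive fit with 5 residual degrees of freedom (18.1%), whose spread mixes how genotype differences vary between cultures with the smaller spread within KO pairs. A standard error is the absolute log2 fold change divided by the square root of F. Within the KO pairs, chi-square values divided by their degrees of freedom were 3.33, 4.62 and 3.05 in pluripotent culture, LIF withdrawal and embryoid bodies, so no pair was taken for copies of 1 library.

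Members and lists were chosen with earlier results of these data known, so counts over them carry no p-value. Values per library are given for the 14 members with the largest size of log2 fold change among those called in KO versus WT. Hif1a, Pfkm, Pfkl, Pfkp, Ldha, Slc2a3, Gapdh and the sum of Eno1 and Eno1b were added after their values were seen. Those of Egln1 and Ankrd37 in embryoid bodies were also given outside this rule. Of further pathway genes, up to 4 called ones with the largest change and a mean FPKM of at least 1 were eligible to be named per comparison, and the 3 named pentose phosphate genes were added after their values were seen. Tested on simulated data for KO versus WT in pluripotent culture (13990 genes), the fit called 78.6% of genes changed 2-fold, 97.1% of those changed 4-fold and 0.058% of unchanged genes. In the simulation 200 genes were changed, every gene had the same variation of 6.52%, and WT varied as KO did. In the data 51.8% of tested genes were called there and genes varied unequally. The simulated rates therefore do not carry over to genes that vary more between KO replicates. Alternatives were DESeq2 1.42.0 and its size factors, library totals only, limma 3.58.1 on log2(FPKM + 1) and log2(FPKM + 0.1), other filters, a replicate block, other fits and leaving out each library.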

Additional observations from a re-analysis of the deposited data

Results flagged for a closer look

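The responses of KO and WT cells differed by a direct test for the members below, given as log2 differences, KO minus WT, and positive throughout. For LIF withdrawal versus pluripotent culture these were Bnip3 (2.06), Pfkfb3 (2.01), Ldhb (1.23), Epas1 (1.0), Kdm3a (0.82), Pgk1 (0.81), Pfkp (0.75), Pdk1 (0.73), Slc2a3 and Pdk3 (0.69 each), Hk1 and Hif1a (0.64 each), Slc16a1 (0.56), Pkm (0.51) and Pgam1 (0.42). The Pfkp and Pgam1 calls were lost without either KO embryoid body replicate, without KO pluripotent replicate 1 and without KO LIF withdrawal replicate 2. That of Hk1 was lost without KO pluripotent replicate 1 (0.61), and that of Pgk1 without KO LIF withdrawal replicate 2 (0.65).

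For embryoid bodies versus pluripotent culture they were, among the HIF targets and subunits, Adm (2.97), Bnip3 (2.73), Egln3 (2.33), P4ha1 (1.96), P4ha2 (1.89), Kdm3a (1.38), Ddit4 (1.34) and Epas1 (1.20). Among the enzymes and transporters they were Pfkfb3 (2.69), Ldhb (1.71), Pfkp (1.58), Slc2a3 (1.55), Aldoc (1.48), Slc16a3 (1.27), Pgk1 (1.19), Pfkl (1.07), Ldha (0.99), Slc2a1 (0.98), Pdk3 (0.75), Pkm (0.70), Gpi1 (0.66), Hk1 (0.64), Tpi1 (0.59), Pgam1 (0.58), Slc16a1 (0.57) and Hk2 (0.43). Aldoc, Ddit4, Hk2 and Tpi1 were not called without KO pluripotent replicate 1, Hk2 not without KO pluripotent replicate 2, Aldoc and Hk2 not without KO embryoid body replicate 1, and Adm, Aldoc, Ddit4, Gpi1, Hk2 and Tpi1 not without KO embryoid body replicate 2. Both sets of differences share the pluripotent libraries with the comparison of KO and WT in pluripotent culture and are not independent of it.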

How the results depend on the processing

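Counts of called members are given here against those in the report. Of 6670 comparisons of a member's log2 fold change with its alternative, 0 with a call in either fit changed sign, and 125 with a call in neither fit did, over 30 members. Of the 6670, 6124 stayed on their side of the threshold, 306 were no longer called and 240 became called. In pluripotent culture (26) the fit on its own libraries called 11. After LIF withdrawal (14) DESeq2 called 8, limma on log2(FPKM + 1) 9 and on log2(FPKM + 0.1) 7, while the fit on its own libraries called 20, 8 higher and 12 lower. In embryoid bodies (13) limma called 7 and 6, and the fit on their own libraries 21. Over the 3 cultures (8) the mean of the within-culture contrasts called 27, in a fit with a smaller spread. For LIF withdrawal versus pluripotent culture in WT (7) limma called 4 and 4, for embryoid bodies in WT (22) DESeq2 called 14 and limma on log2(FPKM + 0.1) 14. For the difference of LIF withdrawal responses (15) DESeq2 and both limma fits called 9 each, and for that of embryoid body responses (26) DESeq2 called 14. The cause of the other changes was not tested. Leaving out 1 library gave 25 to 30 calls in pluripotent culture, 11 to 18 after LIF withdrawal, 8 to 16 in embryoid bodies, 4 to 18 over the 3 cultures, 12 to 23 for the difference of LIF withdrawal responses and 20 to 27 for that of embryoid body responses. With 1 WT library per culture, WT against WT could not be fitted on its own libraries, which leave no residual degree of freedom.

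The replicate numbers were not taken to pair the samples: the KO replicate differences correlated across 8789 genes with r = 0.28 between pluripotent culture and LIF withdrawal, 0.081 between pluripotent culture and embryoid bodies and 0.065 between LIF withdrawal and embryoid bodies. With the replicate block 27 members were called after LIF withdrawal, 8 higher and 19 lower (the 13 added, among them Pgk1, Ldhb, Slc16a1, Slc16a3, Slc2a1, Slc2a3, Tpi1 and Eno1, were all lower in KO), 13 for LIF withdrawal versus pluripotent culture in WT, 25 for the difference of LIF withdrawal responses, 33 in pluripotent culture, 17 in embryoid bodies and 7 over the 3 cultures. Depth limits Car9 and Adm most, which have fewer than 63 counts in every library, and FPKM filters or DESeq2 changed their calls.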

Other observations

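Paralogous genes for 1 step of glycolysis stood at different levels, and some, those of phosphofructokinase among them, also differed in direction. Eno3 was at 26.6 and 25.0 FPKM in KO against 10.1 FPKM in WT in pluripotent culture, where Eno1 fell. In pluripotent culture the phosphofructokinase gene Pfkm was at 15.8 and 15.0 FPKM in KO against 10.3 FPKM in WT, Pfkl at 54.1 and 77.6 FPKM in KO against 130.5 FPKM in WT, and Pfkp at 89.2 and 119 FPKM in KO against 182 FPKM in WT. Ldha was at 649 and 929 FPKM in KO against 1634 FPKM in WT in pluripotent culture, at 1167 and 1257 FPKM in KO against 1662 FPKM in WT after LIF withdrawal, and at 1042 and 1128 FPKM in KO against 1039 FPKM in WT in embryoid bodies. Ldhb, given above, stood lower than Ldha in each of the 9 libraries.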
